A study of Mus musculus with 8 samples.

Results

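*Gpnmb*, *Lpl*, *Cd14*, *Lyz2* and *Entpd1* are 5 genes often studied in macrophages that differed between WT and RhoA-deficient alveolar type 2 (AT2) cells, and they did not move together. They were chosen by name from the 812 genes of the deposited comparison, with their direction already known, so their differences are given as a description with no test. In RhoA-deficient AT2 cells *Gpnmb* was 5.95-fold and *Lpl* 2.92-fold lower, whereas *Entpd1* was 7.17-fold, *Cd14* 2.00-fold and *Lyz2* 1.95-fold higher.

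AT2 cells make the surfactant that lines the alveoli. They came from C57BL/6 mice of the RhoA fl/fl genotype (WT) or the Sftpc-cre;RhoA fl/fl genotype (RhoA_KO in the labels), in which Cre driven by the surfactant protein C promoter deletes RhoA in AT2 cells. The labels list 4 samples per genotype, each a single-passage primary culture given cockroach extract (CRE, an allergen) at 50 μg/mL for 16 hours, so both groups were exposed to the allergen and no unexposed group was analysed here. The paper describes the sequenced AT2 cells as taken from asthma model mice that had themselves been given CRE. The labels state only the exposure in culture. Expression is in FPKM, that is, fragments counted on a transcript after correction for its length and for library size. The deposited table has a single average per genotype, and which samples entered it is not given in the sources used here. The spread between mice and the depth of each library are therefore unknown, and no difference could be set against replicate error.

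By the methods of the study, AT2 cells were left over after antibodies to CD45, CD16/32, Ter119 and Sca-1 had removed blood cells and other lung cells, followed by a step on dishes coated with IgG. CD45, the leukocyte surface phosphatase encoded by *Ptprc*, is carried by macrophages. *Ptprc* was listed at an FPKM of 21.5 in WT against 7.41 in RhoA-deficient AT2 cells, so its transcript was measured in both groups after this depletion. In bulk RNA, fewer cells of a type and less RNA per cell cannot be told apart. The deletion was not checked in these values, since the table has no row for *Rhoa*.

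Macrophages of the lung engulf particles, break them down in lysosomes, handle surfactant lipid and sense bacterial products. The 5 genes stand for separate parts of this work. *Gpnmb* encodes a transmembrane glycoprotein of lysosomes and phagosomes, *Lpl* the secreted lipase that releases fatty acids from lipoprotein triglyceride, *Cd14* the co-receptor that hands lipopolysaccharide to TLR4, *Lyz2* the lysozyme that cleaves bacterial cell walls, and *Entpd1* the surface enzyme CD39 that breaks down extracellular ATP and ADP. *Lyz2* is also a transcript of mature mouse AT2 cells, and *Lpl* and *Entpd1* are made by other lung cells as well, so these 3 do not mark macrophages alone.

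*Lyz2* has a near copy beside it, *Lyz1*, and the coding sequences are shown because reads from one can be assigned to the other. Both lie on the minus strand of chromosome 10 of GRCm38, *Lyz2* from 117277331 to 117282321. In GENCODE M21 the coding sequences are 447 bases long each and differ at 22 positions, which leaves 95.1% of positions identical. The first 240 coding bases hold 17 of these differences and are given 5′ to 3′, with capitals at the bases that differ.
Lyz2: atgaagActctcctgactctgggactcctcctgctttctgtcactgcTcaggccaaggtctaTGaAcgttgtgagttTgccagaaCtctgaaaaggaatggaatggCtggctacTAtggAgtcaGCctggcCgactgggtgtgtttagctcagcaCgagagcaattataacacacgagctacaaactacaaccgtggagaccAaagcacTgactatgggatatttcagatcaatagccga
Lyz1: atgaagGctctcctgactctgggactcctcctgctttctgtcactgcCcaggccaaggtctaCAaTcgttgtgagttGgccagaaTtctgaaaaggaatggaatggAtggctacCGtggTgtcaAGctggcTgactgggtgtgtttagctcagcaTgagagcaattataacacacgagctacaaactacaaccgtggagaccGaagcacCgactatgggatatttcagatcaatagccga
Over the whole coding sequence, the longest stretch without a difference ran for 118 bases. Of all windows of 50 bases in the *Lyz2* transcript, 15.4% also occur in the *Lyz1* transcript, and with 75 bases the share was 5.96%. How reads that match both genes were divided is not given in the sources used here, so the split between these genes is uncertain.

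The bases just before the RefSeq start of both genes are also much alike, and they are shown beside the coding sequences. Both transcripts were higher in RhoA-deficient AT2 cells, and whether these bases bear on that was not tested. In the RefSeq promoters of GRCm38.p6, 92 of the last 100 bases before the start were identical between *Lyz2* and *Lyz1*. The *Lyz2* window begins at 117282273, whereas GENCODE M21 starts this minus-strand gene at 117282321. Nearly all of the nearer 50 bases, which hold 0 differences, are therefore exon of *Lyz2* in that annotation and not upstream sequence. The 50 bases farther from the start hold all 8 differences, marked in capitals, and are read 5′ to 3′ on the minus strand at chr10:117282323-117282372 for *Lyz2* and chr10:117292919-117292968 for *Lyz1*.
Lyz2: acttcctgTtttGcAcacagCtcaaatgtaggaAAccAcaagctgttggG
Lyz1: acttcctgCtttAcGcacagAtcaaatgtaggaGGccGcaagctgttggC

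The levels of the 5 genes spanned a wide range. *Lyz2* was the second most abundant of the 812 transcripts in both genotypes, with an FPKM of 3358 in WT against 6561 in RhoA-deficient AT2 cells. *Cd14* stood at 65.8 and 132.0 FPKM. *Gpnmb* stood at 18.6 in WT against 3.13 in RhoA-deficient AT2 cells. The median FPKM over the table was 12.1 in WT against 12.6 in RhoA-deficient AT2 cells, so *Gpnmb* lay above it in WT and below it without RhoA. *Lpl* stood at 11.9 in WT against 4.08 in RhoA-deficient AT2 cells. *Entpd1*, the lowest of the 5 in WT at 2.29 FPKM, stood at 16.4 in RhoA-deficient AT2 cells and was there higher than *Gpnmb* and *Lpl*. In WT the order from high to low was *Lyz2*, *Cd14*, *Gpnmb*, *Lpl* and *Entpd1*, and in RhoA-deficient AT2 cells it was *Lyz2*, *Cd14*, *Entpd1*, *Lpl* and *Gpnmb*. Because 1 value was given per genotype, it could not be assessed whether neighbours in these orders, such as *Lpl* and *Gpnmb* in RhoA-deficient AT2 cells, differ beyond their spread.

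**Figure D1:**
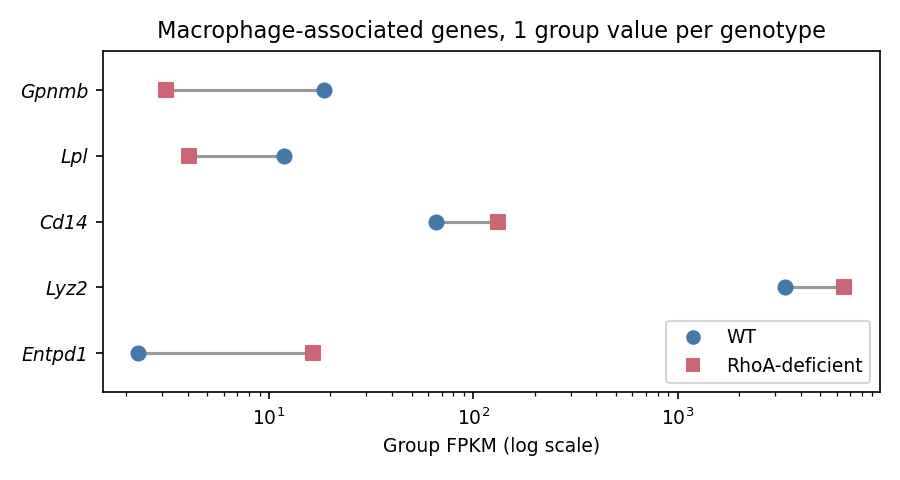
Group FPKM on a log axis for the 5 genes in WT (circles) and RhoA-deficient AT2 cells (squares), with 1 value per genotype and no error available. *Gpnmb* and *Lpl* lie lower without RhoA, *Cd14*, *Lyz2* and *Entpd1* lie higher, and *Entpd1* and *Gpnmb* change places, from 2.29 against 18.6 in WT to 16.4 against 3.13.

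The exchange of *Gpnmb* and *Entpd1* was the widest contrast among the 5. *Gpnmb* was 8.14-fold above *Entpd1* in WT, and *Entpd1* was 5.24-fold above *Gpnmb* in RhoA-deficient AT2 cells. The FPKM of *Lyz2* was 180.1 times that of *Gpnmb* in WT and 2093 times in RhoA-deficient AT2 cells.

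To set the genes beside the rest of the table, the difference in log2(FPKM + 1) was taken as RhoA-deficient minus WT. Adding 1 before the log understates the change of low genes. On this scale the difference was -2.25 for *Gpnmb*, -1.35 for *Lpl*, 0.99 for *Cd14*, 0.97 for *Lyz2* and 2.41 for *Entpd1*. Centred on the median of all genes, it was -2.90, -1.99, 0.34, 0.32 and 1.76 in the same order. That median comes only from genes the authors marked as significant, so it does not measure a difference in scaling. Centring on it lowers every difference by the same amount, which shrinks rises and widens falls. Of the 5, 2 were lower and 3 were higher, with a median of 0.97. Over all 812 genes the median was 0.65, with 55.2% of genes higher and 44.8% lower. A difference of at least 1, which is 2-fold on this scale, was seen downward for *Gpnmb* and *Lpl* and upward for *Entpd1*, against 28.4% of all genes downward, 23.6% upward and 52.1% in either direction. That is 192 genes upward and 231 downward, which became 39 and 364 after centring. Since the genes were chosen from this contrast, nothing is read from these shares. All 812 genes carry the mark of significance of the authors, so they are a selected background, and genes that did not change are not among them. The paper reports fewer differing genes in each direction, and the reason for the gap is not given in the sources used here.

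*Entpd1* held rank 9 of the 448 higher genes and *Gpnmb* rank 5 of the 364 lower genes. *Lpl* was at rank 117 of the lower genes. *Cd14* and *Lyz2* were in the middle of the higher genes, at ranks 197 and 211, where the median of all higher genes was 0.94. By rank, *Gpnmb* stood between *Gm5823* at -2.46 and *Nme5* at -2.12, and *Lpl* between *Ppbp* at -1.35 and *Srgn* at -1.34. *Cd14* stood between *Kcnn3* at 1.00 and *Mmp3* at 0.99, *Lyz2* between *Cxcl1* and *Dennd3*, both at 0.97, and *Entpd1* between *Noxo1* at 2.48 and *Gm43085* at 2.38. Nothing is read from what these neighbours encode.

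**Figure D2:**
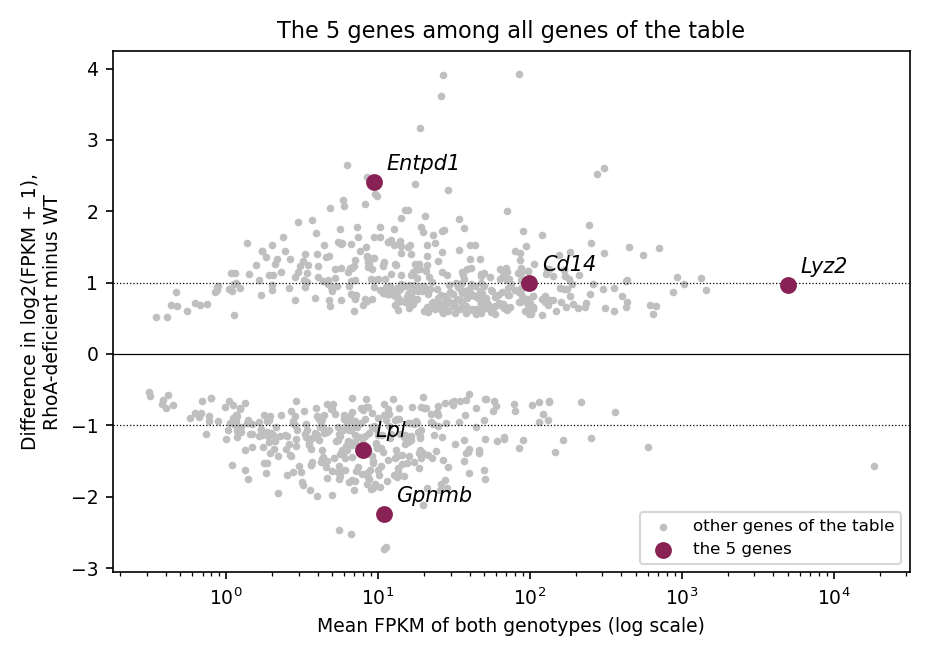
Difference in log2(FPKM + 1), RhoA-deficient minus WT, against the mean FPKM of both genotypes on a log axis for the 812 genes (grey) and the 5 genes (purple), with dotted lines at -1 and 1. *Entpd1* at 2.41 and *Gpnmb* at -2.25 lie near the outer edge of the table, while *Cd14* and *Lyz2* lie close to the upper dotted line.

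*Gpnmb* (ENSMUSG00000029816.10) lies on the plus strand of chromosome 6 from 49036546 to 49070929. Of 29 other genes of lysosomes and phagosomes that were looked up, 5 were in the table, 2 higher and 3 lower, where 44.8% of all 812 genes were lower. *Ctsk*, which encodes the collagen-degrading protease cathepsin K, was listed at 15.5 FPKM in WT against 4.37 in RhoA-deficient AT2 cells, 3.55-fold lower. *Atp6v0d2*, a subunit of the proton pump that acidifies lysosomes, stood at 1.79 and 0.535 FPKM. *Lipa*, the lysosomal acid lipase, stood at 11.5 and 4.15 FPKM. These 3 had differences of -1.62, -0.86 and -1.28 in log2(FPKM + 1). The other 2 are the cholesterol carriers of late endosomes. *Npc1* stood at 18.4 in WT against 33.3 in RhoA-deficient AT2 cells, and *Npc2* at 293.0 and 514.0 FPKM. Their differences of 0.82 and 0.81 were 0.18 and 0.16 after centring on the median of the table. The median of the 5 genes was -0.86, the value of *Atp6v0d2*, against 0.65 over the table, and it was -1.48 when nothing was added before the log. The remaining 24 genes of this list and the 7 listed binding partners and relatives of GPNMB were not analysed here.

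*Lpl* (ENSMUSG00000015568.16) lies on the plus strand of chromosome 8 from 68880491 to 68907448. Of 25 genes of lipoprotein lipase handling and lipid uptake considered here, 2 were in the table, 1 higher and 1 lower, where 55.2% of all 812 genes were higher, and *Lipa* was the one that was lower with *Lpl*. The scavenger receptor *Cd36*, which takes up fatty acids, was higher, at 174.4 FPKM in WT against 344.9 in RhoA-deficient AT2 cells, a difference of 0.98 that was 0.33 after centring on the median of the table. Thus the transcripts of the secreted lipase and the lysosomal acid lipase were lower, and that of the fatty acid receptor was higher.

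*Lipa* was also the gene of the table whose pair of values was nearest to that of *Lpl*. Nearness was the Euclidean distance over the 2 group values in log2(FPKM + 1) among protein-coding genes, and it was 0.05 for *Lipa* and 0.07 for *Cd8b1*, a T cell co-receptor chain at 11.6 and 4.31 FPKM. Near *Gpnmb* lay *Pifo*, a gene of cilium formation, at 15.2 and 3.39 FPKM and a distance of 0.29. With 2 values per gene, such a match says that level and difference were alike and no more.

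*Cd14* (ENSMUSG00000051439.7) is a gene of 1 exon on the minus strand of chromosome 18 from 36725067 to 36726798. Of 24 other genes of lipopolysaccharide sensing, 7 were in the table, of which 6 were higher and 1 was lower, where 55.2% of all 812 genes were higher. Beside *Cd14*, the receptor *Tlr4* was listed at 17.7 FPKM in WT against 39.3 in RhoA-deficient AT2 cells. *Lbp*, the serum protein that carries lipopolysaccharide to CD14, stood at 5.30 and 24.6 FPKM, 4.64-fold higher, and had the largest difference of this list at 2.02. *Tlr2*, a receptor of bacterial lipoproteins that also uses CD14, stood at 13.1 and 23.0 FPKM, a difference of 0.77 that was 0.12 after centring on the median of the table. The transcripts of the ligand carrier, the co-receptor and both receptors were thus all higher in RhoA-deficient AT2 cells. *Cd14* was 3.72-fold above *Tlr4* in WT and 3.35-fold above it in RhoA-deficient AT2 cells.

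Downstream of these receptors, 3 genes of the list that act on NF-κB were listed with higher values. *Nfkbia*, the inhibitor IκBα, stood at 117.9 and 244.5 FPKM. *Tnfaip3*, the deubiquitinase A20 that dampens the pathway, stood at 31.5 and 63.9 FPKM. *Nfkbiz* stood at 20.6 and 31.9 FPKM, and its difference of 0.61 became -0.04 when centred on the median of the table. The gene that was lower was *Itgb2*, the β chain of leukocyte integrins, at 7.96 FPKM in WT against 3.10 in RhoA-deficient AT2 cells. The median of the 7 genes was 1.00, against 0.65 over the table. The genes nearest to *Cd14* over both values were *Cxcl1*, a neutrophil-attracting chemokine, at 68.7 and 135.5 FPKM, and *Mmp3*, the protease stromelysin, at 62.2 and 124.2 FPKM.

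*Lyz2* (ENSMUSG00000069516.8) is listed with *Lyz1*, whose near-identical sequence is given above. *Lyz1* stood at 308.9 FPKM in WT against 807.9 in RhoA-deficient AT2 cells, 2.62-fold higher. Summed over both genes, lysozyme was at 3667 and 7369 FPKM, a ratio of 2.01, which depends little on how reads were divided, since the transcripts are 1316 and 1263 bases long. *Lyz2* was 10.9-fold above *Lyz1* in WT and 8.12-fold above it in RhoA-deficient AT2 cells.

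Of 18 other genes of the lysozyme family and of secreted antimicrobial proteins, 5 were in the table, and all 5 were higher by at least 2-fold on the log2(FPKM + 1) scale, as were 23.6% of all 812 genes. Centred on the median of the table, *Lyz1* at 0.74 and *Slpi* at 0.37 were under 2-fold. Apart from *Lyz1* these were *Lcn2*, the iron-binding lipocalin 2, at 86.7 and 531.3 FPKM, *Pglyrp1*, a peptidoglycan recognition protein, at 9.11 and 48.6 FPKM, *S100a9*, a calprotectin subunit, at 2.69 and 16.5 FPKM, and *Slpi*, a protease inhibitor of secretions, at 282.6 and 573.4 FPKM. The median of the 5 was 2.25, against 0.65 over the table and above the 0.97 of *Lyz2* itself. The protein-coding genes nearest to *Lyz2*, *Ifrd1* at 1003 and 1868 FPKM and *Sftpa1* at 864.3 and 1802 FPKM, were at least 2.51 away on the distance scale.

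*Entpd1* (ENSMUSG00000048120.16) lies on the plus strand of chromosome 19 from 40612366 to 40741602. Its product takes ATP and ADP to AMP, and the product of *Nt5e*, CD73, takes AMP to adenosine. *Nt5e* was listed at 37.4 FPKM in WT against 18.6 in RhoA-deficient AT2 cells, 2.01-fold lower. In WT *Nt5e* was 16.3-fold above *Entpd1*, and in RhoA-deficient AT2 cells the ratio of *Nt5e* to *Entpd1* was 1.13. The transcripts for the enzymes of these successive steps thus went in opposite directions, and enzyme activity was not measured here.

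Of 29 related enzymes, transporters and nucleotide receptors, 4 were in the table, 1 higher and 3 lower, with a median of -1.21 against 0.65 over the table, where 44.8% of genes were lower. *Entpd5*, a relative of *Entpd1* whose product acts in the endoplasmic reticulum, stood at 49.4 and 80.5 FPKM, and its difference of 0.69 was 0.04 after centring on the median of the table. *Enpp3*, an ectonucleotide pyrophosphatase, stood at 4.41 and 0.663 FPKM, 6.65-fold lower. *Enpp2*, which encodes autotaxin, the enzyme that makes lysophosphatidic acid, stood at 6.83 and 1.89 FPKM. None of the listed receptors for ATP or adenosine is among the 812 genes, and they were not analysed here. The genes nearest to *Entpd1* over both values were *S100a9* and *Pigr*, the epithelial receptor that carries IgA and IgM to the lumen, at 2.84 and 16.8 FPKM.

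**Figure D3:**
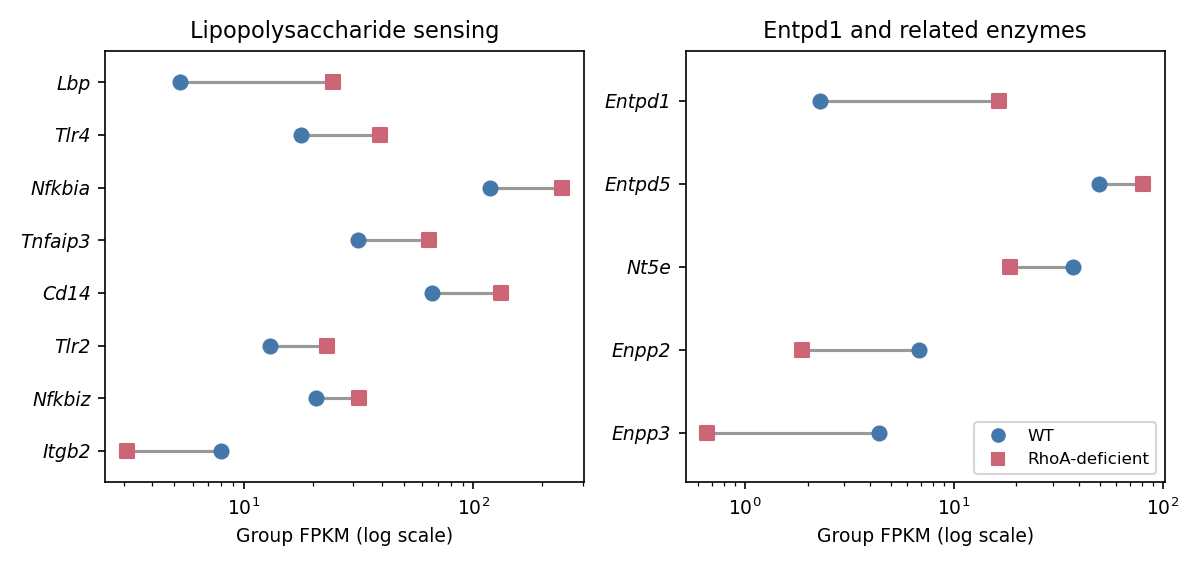
Group FPKM on log axes in WT (circles) and RhoA-deficient AT2 cells (squares) for *Cd14* with the 7 genes of lipopolysaccharide sensing in the table (left) and for *Entpd1* with 4 related genes (right), ordered by difference, 1 value per genotype. On the left *Itgb2* alone is lower without RhoA, and on the right *Nt5e*, *Enpp2* and *Enpp3* are lower while *Entpd1* and *Entpd5* are higher.

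The 5 genes were then set beside markers of the cells that could carry them. Of 58 markers of alveolar macrophages, of interstitial macrophages and monocytes, of myeloid cells in general and of the depleted antigens, 6 were in the table, 5 of them lower, where 44.8% of all 812 genes were lower. The 5 lower genes were *Ctsk* and *Atp6v0d2* of the alveolar macrophage list, *Laptm5* and *Cd53*, which are shared by many leukocytes, and *Ptprc*. *Laptm5* stood at 28.4 and 9.72 FPKM and *Cd53* at 33.8 and 11.7 FPKM. The 5 differed by -1.62 to -0.86 in log2(FPKM + 1), and their summed level was 101.0 FPKM in WT against 33.7 in RhoA-deficient AT2 cells. *Lpl*, at -1.35, lay within that range, and *Gpnmb*, at -2.25, lay below it. The part of these leukocyte transcripts in the lower values of *Gpnmb* and *Lpl* was not tested.

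The marker that was higher, *Plet1*, is also a surface antigen of epithelial cells and stood at 126.9 FPKM in WT against 376.1 in RhoA-deficient AT2 cells. With it, all 6 markers sum to 227.9 and 409.8 FPKM. None of the 18 markers of interstitial macrophages and monocytes, among them *Csf1r*, *Adgre1* and *C1qa*, is in the table, and the defining alveolar macrophage genes *Marco*, *Siglecf* and *Chil3* are not either. These genes were not analysed here, and their levels are unknown. The label of macrophage-associated genes thus rests on what the genes are known for, and the table holds few other macrophage markers to set beside them.

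Of 18 genes marking macrophage activation, 2 were in the table and both were higher, where 55.2% of all 812 genes were. *Retnla*, a marker of alternatively activated macrophages that airway and alveolar epithelium can also make, stood at 9.72 FPKM in WT against 160.9 in RhoA-deficient AT2 cells. *Cxcl10*, an interferon-induced chemokine, stood at 29.5 and 65.4 FPKM.

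AT2 markers went with *Lyz2*, *Cd14* and *Entpd1*. Of 18 AT2 markers other than *Lyz2*, 15 were in the table and all 15 were higher, where 55.2% of all genes were, by a median of 1.48 in log2(FPKM + 1) and a range from 0.93 for *Lpcat1*, an enzyme of surfactant phospholipid, to 3.16 for the phosphate transporter *Slc34a2*. The median over the table was 0.65, and centred on it *Lpcat1* was at 0.28. Their summed level was 2906 FPKM in WT against 7136 in RhoA-deficient AT2 cells. The other 3 listed markers, *Sftpc*, *Nkx2-1* and *Fabp5*, are not in the table, and their levels are unknown. *Lyz2* at 0.97 and *Cd14* at 0.99 were each above 1 of the 15 and below the others, and *Entpd1* at 2.41 was above 13 of them, below *Chil1* at 2.52 and *Slc34a2*. The part of the shift shared by AT2 markers in the higher values of these 3 genes was not tested.

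**Figure D4:**
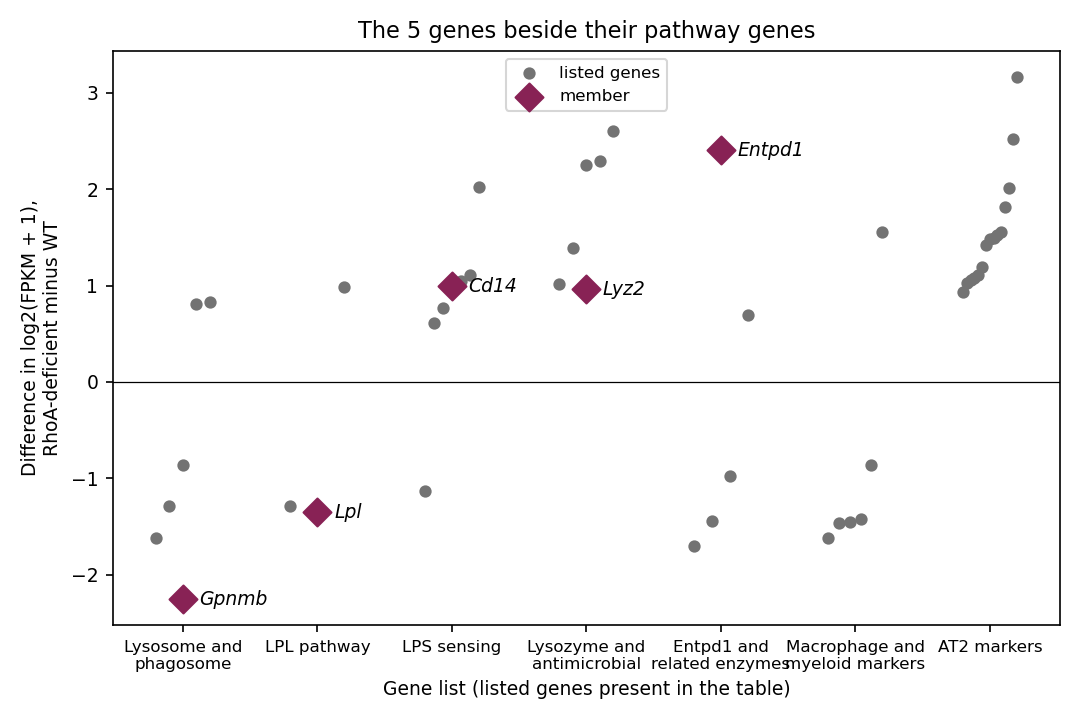
Difference in log2(FPKM + 1), RhoA-deficient minus WT, for the listed genes present in the table (grey points) and for the 5 genes (purple diamonds), by gene list, with 1 value per genotype. *Gpnmb* lies below every lysosomal gene shown, *Entpd1* lies above its 4 related genes, and all 15 AT2 markers lie above 0.

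With 1 added to the start, the positions of the 5 genes in the table equal those of GENCODE M21 on GRCm38, and in that annotation none of them shares an exonic base with another gene. Upstream sequence was compared for *Gpnmb*, *Lyz2* and *Entpd1*, which were 3 of the 5 with an entry among the RefSeq promoters used here. In the 250 bases before each RefSeq start, including both starts of *Entpd1*, 6 short motifs were looked for on both strands. They were the E-box CACGTG, the M-box CATGTG, the AP-1 site TGACTCA, an NF-κB site, a PU.1 site GAGGAAGT and the TATA box TATAAA. None of these exact letters occurred in any of the 4 windows, where 6.02%, 12.3%, 4.46%, 0.14%, 2.44% and 12.4% of all 32851 promoter windows of this length hold them. A missing match says only that these letters are not in the window.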

How the data were processed

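RNA was sequenced from 4 WT and 4 RhoA-deficient AT2 samples. Per the study's methods, the authors made stranded mRNA libraries, aligned reads with STAR to GRCm38, annotated them with Partek and RefSeq, and compared genotypes with Cufflinks. The submitters' processing notes name STAR 2.7.2b and mm9, but the loci of the 5 genes, with 1 added to the start, equal GENCODE M21 on GRCm38. The deposited FPKM values are 1 per genotype, averaged by the authors over samples. Depth per sample is unknown, so no interval is given. The deposited table also holds the authors' own comparison (a log2 fold change, a test statistic or score, a p-value and a q-value), which was not used. All 812 genes carry the authors' mark of significance.

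The differences in log2(FPKM + 1) were computed here with a pseudocount of 1 and no filter on low values. All 5 genes had a mean FPKM of at least 1. No test was run, because the table holds no values per sample and limma, planned for that case, could not be fitted. The 5 genes and the gene lists were chosen with earlier results of these data known. Genes named were the 5, listed genes present in the table, the 2 protein-coding genes nearest to each of the 5, and their neighbours in rank. A few genes that this rule covers are not reported here, and 1 was left out of its list. Alternatives were a pseudocount of 0.1 or none, centring on the median, and a mean FPKM of at least 1 or 5. The protein comparison planned for lysozyme was made on coding sequence from GENCODE M21 transcripts. The calculation was checked on made-up values with known differences. Versions were Python 3.11.15, Biopython 1.88, pandas 2.3.3, NumPy 2.4.6 and Matplotlib 3.10.9.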

Additional observations from a re-analysis of the deposited data

How the results depend on the processing

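Of the alternatives run on the 5 genes, only centring could turn a sign, and it turned none of the 5. With a pseudocount of 0.1 the differences were -2.54 for *Gpnmb*, -1.52 for *Lpl*, 1.00 for *Cd14* and 2.79 for *Entpd1*, and with none they were -2.57, -1.54, 1.00 and 2.84, while *Lyz2* stayed at 0.97. *Cd14* therefore reached 2-fold with both. Centred on the table's median of 0.65, the differences were -2.90 for *Gpnmb*, -1.99 for *Lpl*, 0.34 for *Cd14*, 0.32 for *Lyz2* and 1.76 for *Entpd1*. This centring gave 39 genes past 2-fold upward and 364 downward, against 192 and 231, and turned the sign of 1 of the 43 listed genes, *Nfkbiz*. Because genes that did not change are missing from the median, a small centred value does not show that a rise came from scaling. A mean FPKM of at least 5 left 153 genes past 2-fold upward against 192, and 148 downward against 231, because fewer genes enter. With that filter the upward count was the larger, whereas without it the downward count was. Without a pseudocount, the medians were -1.48 for lysosomal genes, 1.02 for lipopolysaccharide sensing, 2.42 for antimicrobial genes and -1.43 for genes related to *Entpd1*. For the 3 alveolar macrophage markers in the table, 1 higher and 2 lower, the median was -0.86, and without a pseudocount -1.74. Both are the value of *Atp6v0d2* alone, which stood at 0.535 FPKM in RhoA-deficient AT2 cells. Depth is unknown, and values under an FPKM of 1, such as *Enpp3* and *Atp6v0d2* without RhoA, move most with the pseudocount. Leaving out replicates was not run. No paired analysis was possible because no values per sample were at hand.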

Other observations

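Other genes known from macrophages and dendritic cells were picked from the table after their values were seen, so their number and direction support nothing. There were 17 such genes, 9 higher and 8 lower, and only some of them are described here. *Acp5*, a lysosomal acid phosphatase, stood at 16.1 FPKM in WT against 7.50 in RhoA-deficient AT2 cells, and *Ctse*, the endosomal protease cathepsin E, at 37.9 and 23.4 FPKM. The lysosomal proteases *Ctsc* and *Lgmn* stood at 86.1 and 226.0 FPKM and at 34.5 and 54.1 FPKM. The difference of *Lgmn*, 0.63, is below the median of the table.

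*Ccr7*, the lymph node homing receptor, stood at 20.1 and 5.48 FPKM, *Cd83*, a marker of mature dendritic cells, at 5.71 and 2.02 FPKM, and the checkpoint gene *Vsir* at 11.6 and 3.17 FPKM. The chemokines *Cxcl2* and *Cxcl3*, which attract neutrophils, were higher with *Cxcl1* and *Cd14*, at 42.8 and 117.8 FPKM and at 26.4 and 67.8 FPKM.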
